A study of Homo sapiens with 4 samples.

Results

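Keratins are the intermediate filament proteins of epithelial cells. The genes described here are 10 keratins (KRT8, KRT18, KRT19, KRT7, KRT80, KRT81, KRT86, KRT10, KRT17 and KRT23) out of 61541 genes in the count table. They were taken from the table by symbol, and no measured value entered the rule, although earlier results of these data were known when the set was chosen. They were compared between MHCC97H cells carrying a control shRNA (genotype control, shCon, 2 libraries) and MHCC97H cells carrying an shRNA against UBXN1 (genotype UBXN1 knockdown, shUBXN1, 2 libraries). MHCC97H is an established human hepatocellular carcinoma (HCC) cell line, and UBXN1 encodes a ubiquitin-binding adaptor protein with a UBX domain. All 4 libraries came from this single line, the shRNAs were delivered with lentiviral vectors by the methods, no time or dose was given, and the sources used here do not say which UBXN1 shRNA was in the sequenced cells. The methods name an shRFP control where the labels have shCon, and nothing states that the 2 libraries of a group came from separate cultures, so the p-values measure the spread between these libraries, which may be technical.

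A keratin filament is built from pairs of an acidic type I chain and a neutral or basic type II chain, and a chain without a partner is usually degraded. Hepatocytes contain the pair of KRT8, a type II chain, and KRT18, a type I chain. Cholangiocytes, the cells that line bile ducts, also contain KRT7 (type II) and KRT19 (type I), which are used in pathology to mark biliary differentiation. KRT19 is further known as a progenitor marker in HCC. The other members are mainly known from other epithelia: KRT80 is a type II keratin found broadly in epithelia, KRT81 and KRT86 are type II hair keratins, KRT10 is the type I keratin of differentiating epidermis, KRT17 is a type I keratin of skin appendages and injured skin, and KRT23 is a type I keratin of simple epithelia.

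The libraries held 23373700 to 27380508 counts, and 16863 genes passed the filter on low counts. UBXN1 had 1788 and 1817 counts in the control libraries and 416 and 433 in the knockdown libraries, so its level in the knockdown was 24.4% of that in the control (log2 fold change −2.03, SE 0.096, adjusted p = 9.98e-10 by edgeR's quasi-likelihood F-test, Benjamini-Hochberg adjusted). Mitochondrially encoded genes took 5.28% and 5.59% of counts in shCon and 7.43% and 8.27% in shUBXN1, and their part in the keratin results was not tested. Levels are given as CPM, the counts of a gene per 1000000 counts after TMM scaling, for a gene across libraries, or as TPM, which first divides counts by gene length and then scales them to a sum of 1000000, for levels between genes. Fold changes are shUBXN1 against shCon.

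Of the 10 keratins, 8 were tested, and KRT86 and KRT23 were too low. At an adjusted p under 0.05, KRT7, KRT80 and KRT18 were higher in shUBXN1 and KRT19 and KRT8 were lower, while KRT10, KRT17 and KRT81 did not pass. These are 3 of 8 higher and 2 of 8 lower, 5 of 8 in all, against 28.0% of all genes tested higher, 28.2% lower and 56.2% in either direction. The share of keratins called was therefore near that of all genes tested. At the fold of 2 and unadjusted p under 0.05 that the study's methods give, KRT7 was the only member higher and KRT19 the only member lower, against 11.8% and 6.09% of all genes tested. The 2 groups did not overlap for the same 5 keratins, 3 higher and 2 lower, against 39.4% of all genes tested higher, 38.6% lower and 78.0% in either direction.

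**Figure D1:**
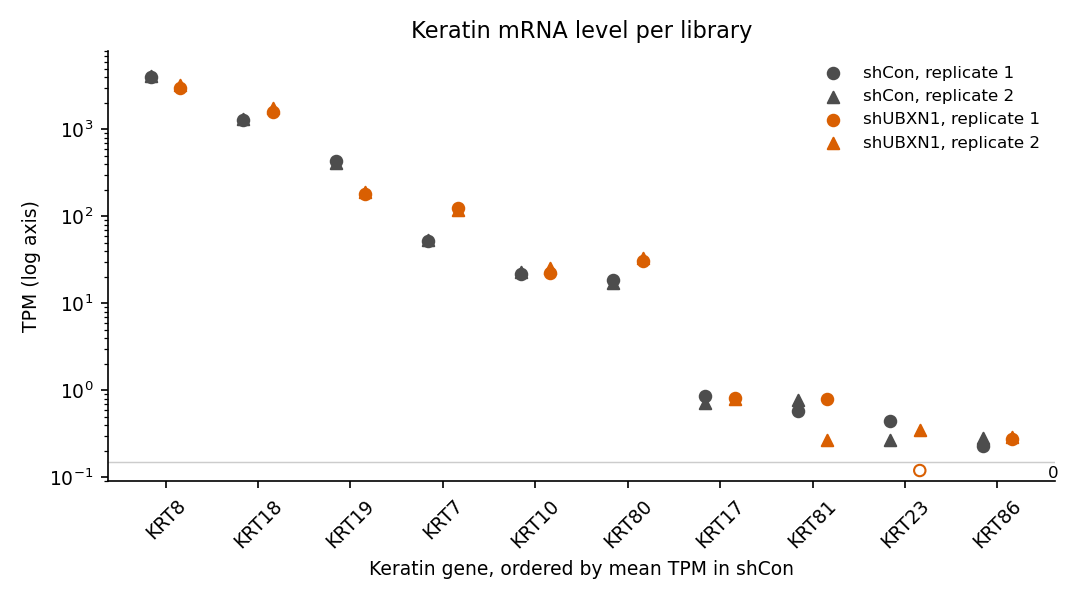
Level of each of the 10 keratins in TPM (log axis) in the 4 libraries, in grey for shCon and orange for shUBXN1, with circles for replicate 1, triangles for replicate 2 and an open symbol for a level of 0. KRT8 and KRT18 are the highest in every library, KRT19 and KRT7 come closer together in shUBXN1, and KRT81, KRT17, KRT86 and KRT23 lie at 0 to 0.86 TPM.

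The order of the keratins by level per length was nearly the same in both groups. In shCon, KRT8 stood at 4053 ± 8.96 TPM (mean ± SD, n = 2), KRT18 at 1302 ± 26.4 TPM, KRT19 at 423 ± 14.1 TPM and KRT7 at 52.6 ± 1.23 TPM. KRT10 followed at 22.3 ± 0.79 TPM and KRT80 at 17.9 ± 0.92 TPM. In shUBXN1, the first 4 places were unchanged, and KRT80, at 31.9 ± 1.86 TPM, stood above KRT10, at 23.9 ± 1.95 TPM. Neighbours among these 6 genes were separated in every library of a group, whereas KRT17, KRT81, KRT23 and KRT86 lay at 0 to 0.86 TPM, and neighbours among them overlapped in both groups except KRT81 and KRT23 in shCon. KRT8 was among the most abundant mRNAs of this line, in place 21 of all genes by mean TPM in shCon and place 31 in shUBXN1. KRT18 was in place 89 and then 63, KRT19 in place 315 and then 743, and KRT7 in place 3095 and then 1209.

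KRT8, the type II chain that hepatocytes depend on, lies on chromosome 12 from 52897187 to 52949954 on the minus strand (GRCh38, GENCODE v44, as are all positions here). It had 89425 and 81445 counts in the control libraries and 57649 and 63560 in the knockdown libraries. Each shUBXN1 library was below each shCon library on the count, CPM and TPM scales. Its mean fell from 3407 ± 79.7 CPM to 2519 ± 273 CPM (n = 2 each), a 1.35-fold lower level (log2 fold change −0.44, SE 0.099, 95% interval −0.65 to −0.22, adjusted p = 0.00185 by edgeR's quasi-likelihood F-test, Benjamini-Hochberg adjusted). The call was lost without shCon replicate 2, where the log2 fold change was −0.43 and the adjusted p 0.105. In RNA from a whole culture, fewer cells that express a keratin and less RNA per cell cannot be told apart.

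KRT18, the type I partner of KRT8, lies next to it on chromosome 12, from 52948871 to 52952906 on the plus strand. It had 23865 and 22297 counts in the control libraries and 25858 and 29196 in the knockdown libraries. The groups did not overlap, and the distance between the 2 shUBXN1 libraries was larger than that between the 2 shCon libraries. KRT18 rose from 921 ± 38.2 CPM to 1145 ± 143 CPM, 1.24-fold (log2 fold change 0.31, SE 0.095, 95% interval 0.11 to 0.52, adjusted p = 0.0116 by the same test). This was the weakest of the 5 calls: without shCon replicate 1 the log2 fold change was 0.27 and the adjusted p 0.112, and without shCon replicate 2 they were 0.34 and 0.150.

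The partners thus changed in opposite directions. The ratio of KRT8 to KRT18 in TPM was 3.15 and 3.07 in shCon and 1.88 and 1.83 in shUBXN1. The ratio was lower in each knockdown library than in each control library, with no overlap. With 2 libraries against 2, the smallest exact permutation p is 0.333, so ratios are given as values without a test. KRT8 made up 69.1% and 68.9% of the summed TPM of the 10 keratins in shCon and 60.5% and 60.3% in shUBXN1, and KRT18 made up 21.9% and 22.4% and then 32.2% and 32.9%.

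How reads were assigned bears on these 2 genes. Their exons overlap on opposite strands over 525 bases, which is 7.6% of the annotated exon bases of KRT8 and 17.1% of those of KRT18, and whether counting used strand is not given in the sources used here. These shares refer to 6881 annotated exon bases for KRT8 and 3069 for KRT18. The deposited lengths, on which TPM rests, are shorter, at 1687 and 1420 bases. How much of the overlap lies within the counted bases is therefore not known. Both also have many pseudogenes. The table lists 51 for KRT8, 30 of them with a count, and together they held 0.349% to 0.424% of the KRT8 counts. The 67 KRT18 pseudogenes held 0.107% to 0.163% of the KRT18 counts, and the 5 KRT19 pseudogenes held none. KRT8P12 is a KRT8 pseudogene on chromosome 3 that is 90.5% identical to the KRT8 coding sequence over 1385 aligned bases, with no shared run longer than 53 bases. It had 241 and 231 counts in the control libraries and 166 and 174 in the knockdown libraries (log2 fold change −0.42, SE 0.16, adjusted p = 0.0341 by edgeR's quasi-likelihood F-test, Benjamini-Hochberg adjusted), next to −0.44 for KRT8 itself. The stretches below, coding bases 31 to 60 of KRT8 (chr12:52904922-52904951, minus strand) and the aligned bases of KRT8P12 (chr3:160567882-160567911, plus strand), show how such a copy differs from its parent, with the 3 differing bases in capitals. The sequences are those of the GENCODE v44 transcripts.
KRT8: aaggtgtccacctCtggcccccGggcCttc
KRT8P12: aaggtgtccacctTtggcccccAggcTttc

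KRT19, the smallest keratin and a type I chain of bile ducts and of progenitor-like HCC, had the largest decrease among the members. It lies on chromosome 17 from 41523617 to 41528308 on the minus strand. It had 7878 and 6823 counts in the control libraries and 2877 and 3067 in the knockdown libraries, and the control libraries stood well above the knockdown libraries. Its mean fell from 293 ± 3.57 CPM to 123 ± 10.4 CPM, 2.37-fold (log2 fold change −1.24, SE 0.080, 95% interval −1.42 to −1.07, adjusted p = 1.51e-08 by edgeR's quasi-likelihood F-test, Benjamini-Hochberg adjusted). KRT19 made up 24.9% and 23.5% of the type I TPM of the 10 keratins in shCon and 10.1% and 9.56% in shUBXN1.

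KRT7, the type II keratin that is paired with KRT19 in ducts, moved the other way. It lies on chromosome 12 from 52232520 to 52252186 on the plus strand. It had 1102 and 1034 counts in the control libraries and 2326 and 2232 in the knockdown libraries, without overlap. KRT7 rose from 42.6 ± 1.89 CPM to 94.5 ± 0.98 CPM, 2.22-fold (log2 fold change 1.15, SE 0.076, 95% interval 0.99 to 1.31, adjusted p = 2.09e-08 by the same test). Under all 14 alternative settings the log2 fold change lay between 1.0 and 1.24 for KRT7 and between −1.39 and −1.16 for KRT19, and every one kept an adjusted p under 0.05. An antisense gene, KRT7-AS, shares 282 exon bases with KRT7 and had 6.11 and 15.9 counts in the control libraries and 23.7 and 25.2 in the knockdown libraries, few beside those of KRT7.

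The biliary keratins therefore did not change together. The ratio of KRT7 to KRT19 in TPM was 0.120 and 0.130 in shCon and 0.692 and 0.622 in shUBXN1, so KRT19 remained the more abundant of the pair in every library. KRT19 relative to KRT18, its fellow type I chain, was 0.337 and 0.313 in shCon and 0.114 and 0.107 in shUBXN1. KRT7 relative to KRT8, its fellow type II chain, was 1.28% and 1.32% in shCon and 4.19% and 3.65% in shUBXN1. In the knockdown libraries the hepatocyte chain thus stood higher against its biliary counterpart among type I keratins and lower among type II keratins, with no overlap between groups.

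KRT80, a type II keratin, lies on chromosome 12 from 52168996 to 52192014 on the minus strand. It had 943 and 796 counts in the control libraries and 1353 and 1497 in the knockdown libraries. All shUBXN1 values were above all shCon values. KRT80 rose from 34.6 ± 1.05 CPM to 59.2 ± 6.56 CPM, 1.71-fold (log2 fold change 0.78, SE 0.090, 95% interval 0.58 to 0.97, adjusted p = 4.9e-06 by edgeR's quasi-likelihood F-test, Benjamini-Hochberg adjusted), and stayed called under the 14 alternative settings, at 0.64 to 0.88.

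KRT10, the type I keratin of the upper epidermis, lies on chromosome 17 from 40818117 to 40822614 on the minus strand. It had 617 and 589 counts in the control libraries and 555 and 635 in the knockdown libraries, and the groups overlapped. Its log2 fold change was 0.04 (SE 0.11, 95% interval −0.19 to 0.27, adjusted p = 0.782 by the same test), which leaves room for a fold between 0.874 and 1.21. An antisense gene, KRT10-AS1, shares 61 exon bases with it and had 184 and 156 counts in the control libraries and 203 and 221 in the knockdown libraries.

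The other members were close to the limit of detection. KRT17 (chromosome 17, 41619442 to 41624842, minus strand) had 17 and 13 counts in the control libraries and 14 and 14 in the knockdown libraries. Its log2 fold change was −0.04, with a 95% interval from −1.11 to 1.03, so a change of 2-fold in either direction was not detectable at this depth. KRT17 also has near copies: its coding sequence is 86.4% identical to that of KRT14 and 81.2% to that of KRT16, and its 8 listed pseudogenes held 2 and 3 counts in the control libraries and 21 and 11 in the knockdown libraries. KRT23 (chromosome 17, 40922700 to 40937646, minus strand) had 13 and 7 counts in the control libraries and 0 and 9 in the knockdown libraries, where a count of 0 allows a level of up to 0.121 CPM (3 counts, counting error only). No library of KRT23 was high, and the groups overlapped.

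KRT81 (chromosome 12, 52285913 to 52291534, minus strand) had 14.7 and 18 counts in the control libraries and 17.5 and 6 in the knockdown libraries, and its log2 fold change was −0.47 (SE 0.57, 95% interval −1.69 to 0.74, adjusted p = 0.502 by edgeR's quasi-likelihood F-test, Benjamini-Hochberg adjusted). KRT86 (chromosome 12, 52249300 to 52309163, plus strand) had 6.28 and 7 counts in the control libraries and 6.51 and 7 in the knockdown libraries. An antisense gene without a symbol shares 221 exon bases with KRT86. It had more counts than KRT86, 21 and 13 in the control libraries and 21 and 22 in the knockdown libraries. Values that are not whole numbers can arise when reads are divided between genes. These hair keratins are 93.9% identical over 1454 aligned coding bases, with an identical run of 605 bases. A read that lies wholly within that run does not by itself tell the 2 genes apart. Coding bases 340 to 369, near its middle, show this in KRT81 (chr12:52291097-52291126, minus strand) and KRT86 (chr12:52302256-52302285, plus strand), with no capitals because no base differs.
KRT81: aacagcaggttcgcggccttcatcgacaag
KRT86: aacagcaggttcgcggccttcatcgacaag

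**Figure D2:**
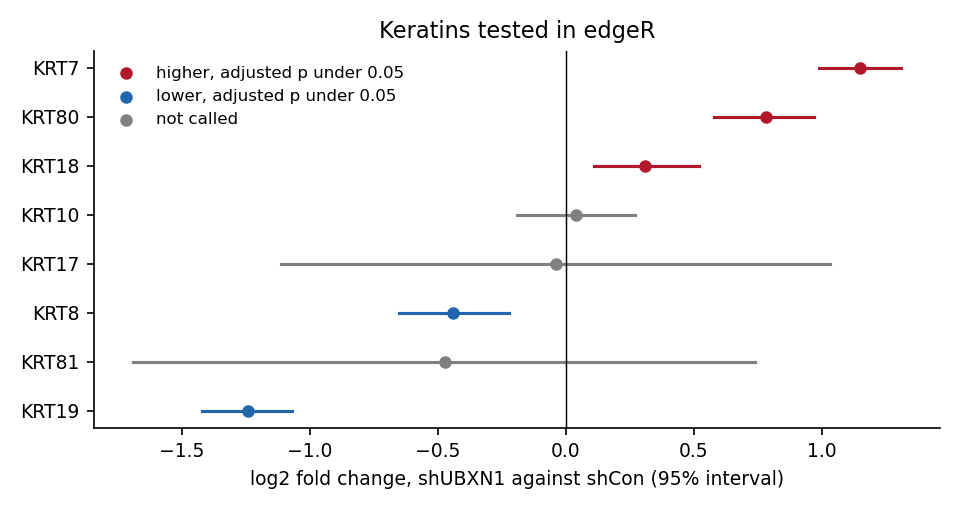
Log2 fold change (shUBXN1 against shCon) of the 8 keratins tested, with 95% intervals (red higher, blue lower, grey not called) from edgeR's quasi-likelihood test. KRT7, KRT80 and KRT18 lie above 0 and KRT8 and KRT19 below 0 with their whole interval, whereas the intervals of KRT10, KRT17 and KRT81 include 0.

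Summed over the 10 genes, keratin mRNA was lower in the knockdown. The sum was 5857 and 5888 TPM in shCon and 4950 and 5374 TPM in shUBXN1, or 0.586% and 0.589% against 0.495% and 0.537% of all TPM. The type II sum went from 4118 and 4131 TPM to 3150 and 3391 TPM, whereas the type I sum was 1739 and 1757 TPM in shCon and 1800 and 1984 TPM in shUBXN1. KRT8 made up a mean of 98.3% of the type II sum in shCon and 95.3% in shUBXN1. The lower type II sum was thus a fall of KRT8 and not of the type II members as a class, since KRT7 and KRT80 were higher in shUBXN1. With these sums, the ratio of type II to type I members was 2.37 and 2.35 in shCon and 1.75 and 1.71 in shUBXN1.

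A type I keratin outside the set took part of this balance. KRT20, a type I keratin best known from gut epithelium, had 26872 and 23416 counts in the control libraries and 16295 and 17188 in the knockdown libraries (log2 fold change −0.53, SE 0.084, adjusted p = 0.000105 by edgeR's quasi-likelihood F-test, Benjamini-Hochberg adjusted). At 1137 and 1091 TPM in shCon and 791 and 819 TPM in shUBXN1, it stood above KRT19 and below KRT18 in every library. With all 55 keratins of the table counted, a sum added after the values were seen, type II over type I was 1.43 and 1.44 in shCon and 1.21 and 1.21 in shUBXN1, so type II mRNA exceeded type I mRNA in all 4 libraries on either count. The sum over all type I keratins was 2891 and 2863 TPM in shCon and 2604 and 2814 TPM in shUBXN1. On the TPM scale that sum was lower in both knockdown libraries, whereas the sum of the type I members was higher. TPM carries no TMM scaling (factors 0.967 to 1.06), and the higher sum of the type I members depends on this: after TMM scaling the groups overlap. The 10 members held 83.5% and 84.2% of the TPM of all 55 keratins in shCon and 86.0% and 86.6% in shUBXN1. Of the other 24 type I keratins, 3 were tested and KRT20 was the only one called, against 56.2% of all genes tested. Of the other 21 type II keratins, 2 (KRT4 and KRT79) were tested and 0 were called by edgeR's quasi-likelihood test.

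**Figure D3:**
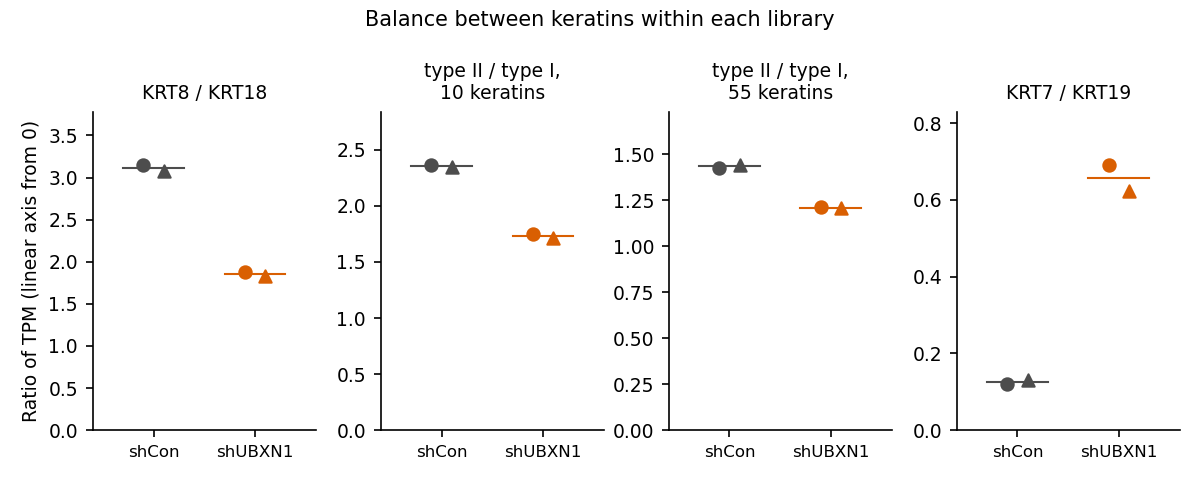
Ratios between keratin levels in TPM in each of the 4 libraries, in grey for shCon and orange for shUBXN1, with circles for replicate 1, triangles for replicate 2 and a line at the mean of the group (linear axes from 0). KRT8 over KRT18 and type II over type I, for 10 and for 55 keratins, lie lower in both shUBXN1 libraries, and KRT7 over KRT19 lies higher. Most of the type II sum is KRT8.

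The genes whose profile over the 4 libraries lay closest to KRT8 were CALR, PPA2 and REX1BD, with a root mean square distance of 0.0070, 0.0075 and 0.0097 between log2 CPM values centred on each gene's own mean. For KRT18 they were TAGLN2, GSTM4 and GALNT1, at 0.0075, 0.0083 and 0.0099. With 4 libraries and 16863 genes, many profiles lie close to any given gene, and likeness is given as a description.

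Genes of other intermediate filaments were next compared with the keratins. Of 15 listed, 9 were tested, 3 were higher and 4 lower, against 28.0% and 28.2% of all genes tested. The median log2 fold change was −0.01 beside 0.016 for all genes tested. The nuclear lamin genes LMNB2 (−1.21), LMNB1 (−0.94) and LMNA (−0.86) fell on the log2 scale. SYNM, which encodes the linker synemin, rose from 6.88 ± 0.19 CPM to 20.8 ± 1.11 CPM (log2 fold change 1.60), NES, which encodes nestin, had a log2 fold change of 0.30, and PRPH, which encodes peripherin, had 5 and 3 counts in the control libraries and 43.7 and 61.0 in the knockdown libraries. VIM, the vimentin gene of mesenchymal cells, was low beside KRT8 and KRT18 in every library, at 11.2 ± 0.15 CPM in shCon and 13.1 ± 0.30 CPM in shUBXN1 (adjusted p = 0.123 by edgeR's quasi-likelihood F-test, Benjamini-Hochberg adjusted).

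Keratin filaments are anchored at desmosomes and hemidesmosomes through linker proteins, and the genes of this machinery moved in both directions. Of 23 listed, 18 were tested, 8 were higher and 7 lower, against 28.0% and 28.2% of all genes tested. The median log2 fold change was 0.06. EPPK1, which encodes epiplakin, a plakin that binds KRT8 and KRT18 filaments, had 677 and 527 counts in the control libraries and 7710 and 6350 in the knockdown libraries. This was the largest change among the listed linkers (log2 fold change 3.60, SE 0.098, adjusted p = 8.57e-12 by edgeR's quasi-likelihood F-test, Benjamini-Hochberg adjusted). The plakin EVPL (1.33) and the desmosomal cadherin DSG2 (0.76) also rose on the log2 scale.

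The desmosomal plaque genes were among those that fell. PKP2, which encodes plakophilin 2, fell by 1.33 on the log2 scale, and JUP, which encodes plakoglobin, fell by 0.71. DSP, which encodes desmoplakin, the protein that ties keratins to the plaque, had 10717 and 8950 counts in the control libraries and 5587 and 5121 in the knockdown libraries, and fell by 0.82 on the log2 scale (SE 0.075, adjusted p = 5.07e-07 by edgeR's quasi-likelihood F-test, Benjamini-Hochberg adjusted). PLEC, which encodes plectin, did not pass the test (log2 fold change −0.20, adjusted p = 0.0688). Proteins of the 14-3-3 family bind phosphorylated KRT18. Of the 7 genes of that family, 1 was higher (YWHAH, 0.29) and 1 lower (YWHAE, −0.83) on the log2 scale, with a median of −0.07. The shares over all genes tested were 28.0% higher and 28.2% lower.

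**Figure D4:**
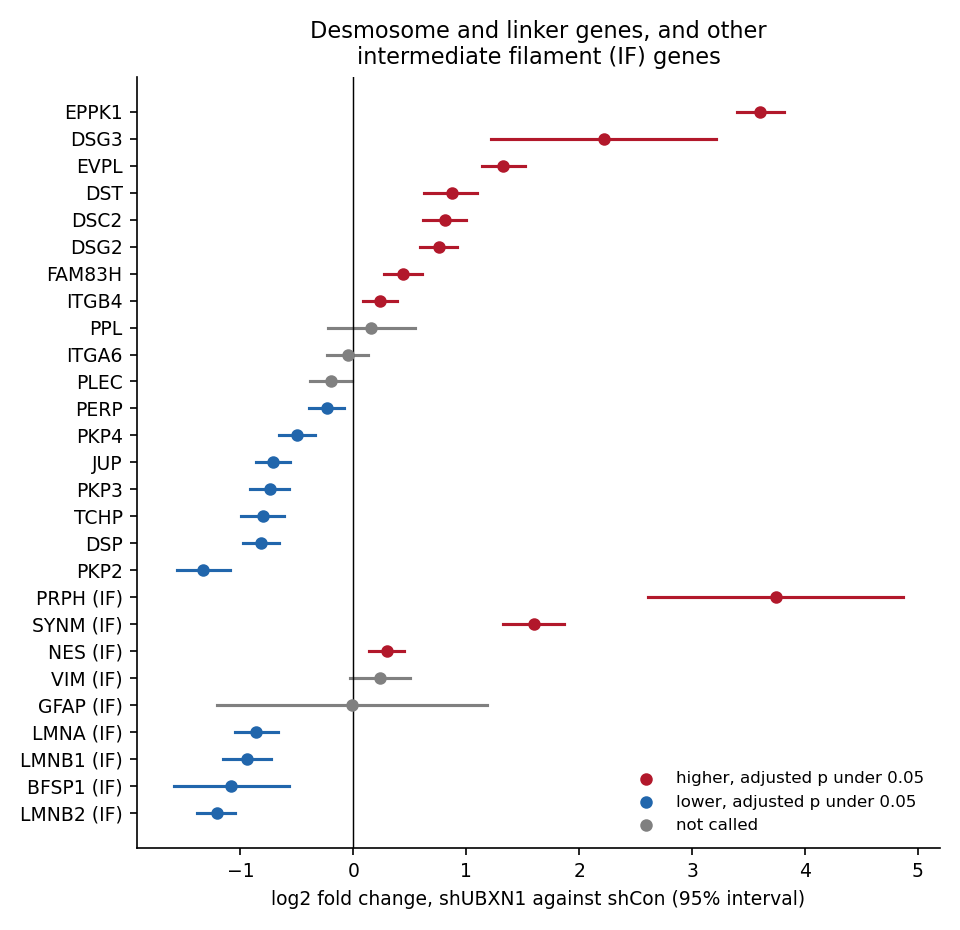
Log2 fold change (shUBXN1 against shCon) with 95% intervals of the 18 desmosome and linker genes and the 9 other intermediate filament (IF) genes tested, in red where higher, blue where lower and grey where not called. EPPK1 lies farthest above 0 among the linkers at 3.60, and PKP2 farthest below 0 at −1.33.

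Markers of the cell types that these keratins are read for were set beside them. Of 16 hepatocyte markers, 13 were tested, 2 were higher and 8 lower, against 28.0% and 28.2% of all genes tested. The median log2 fold change was −1.22, and their summed level was 231 and 221 CPM in shCon and 105 and 105 CPM in shUBXN1. ALB, the albumin gene, fell from 17.5 ± 0.57 CPM to 4.49 ± 0.41 CPM, GPC3 was at 0 in every library, and TF (−1.96) and FGB (−4.02) fell on the log2 scale, while ASGR1 (2.02) and SERPINA1 (0.40) rose. Counts were low for ASGR1, at 11 and 20 in shCon and 71.1 and 52 in shUBXN1. FGB had 259 and 234 counts in shCon and 20 and 9 in shUBXN1. Levels of hepatocyte markers in control cells were mixed, with TF at 97.5 ± 7.40 CPM and the transcription factor gene HNF4A at 59.7 ± 2.80 CPM.

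Biliary markers other than keratins did not share a direction. Of 16 listed, 11 were tested, 3 were higher and 5 lower, against 28.0% and 28.2% of all genes tested. The median log2 fold change was −0.01. The summed level of the list was 2164 and 2222 CPM in shCon and 2339 and 2486 CPM in shUBXN1. SPP1 held the largest part of that sum, at 1236 and 1283 CPM in shCon and 1578 and 1693 CPM in shUBXN1. MUC1 (2.39), SPP1 (0.38) and ELF3 (0.22) rose on the log2 scale, while CLDN4 (−1.29), SOX4 (−0.69) and CD24 (−0.60) fell. SOX9, a transcription factor of ductal cells, stood at 38.7 ± 0.25 CPM in shCon and 38.5 ± 3.66 CPM in shUBXN1. The ductal genes CFTR and PROM1 were at 0 in every library, and EPCAM had 10 to 19 counts. Of 8 markers of other liver cells, 4 were tested, 2 were higher (COL1A1, 3.11, and PECAM1, 0.35) and 1 lower (CD68, −0.25), against 28.0% and 28.2% of all genes tested. COL1A1 was low, with 10 and 4 counts in the control libraries and 58 and 59 in the knockdown libraries. The leukocyte marker PTPRC had 0 to 4 counts, and the summed level of the list was 117 and 122 CPM in shCon and 120 and 117 CPM in shUBXN1. The part of these markers in the keratin results was not tested.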

How the data were processed

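The measurements were RNA-seq of 2 shCon and 2 shUBXN1 libraries, grouped by the sample labels. As deposited by the authors, the values are expected counts that had been estimated for each gene from aligned reads, without normalization, beside the length of each gene. The submitters' processing notes name HISAT2 2.0.4, StringTie 1.3.0 and GRCh37, and the labels a VAHTS kit, whereas the study's methods name GRCh38 and a TruSeq kit. The tool that made the counts, the annotation release and the use of strand are not given in the sources used here. Gene IDs matched GENCODE v44 for 61369 of 61541 genes, which supplied symbols, positions on GRCh38 and sequences. The table holds no coordinates.

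Counts were rounded, filtered with filterByExpr, scaled with TMM (factors 0.967 to 1.06) and tested over 16863 genes with glmQLFit and glmQLFTest in edgeR 4.0.16 (R 4.3.3), two-sided, without a replicate block, with Benjamini-Hochberg adjustment. The study's methods name TPM for levels and limma for the test without stating the input to limma. Limma on log2(TPM + 1) was tried here as an alternative. Standard errors and 95% intervals come from the F statistic. For each gene, the test joined 2 residual degrees of freedom with a median of 12.1 borrowed from all genes. The p-values and intervals therefore rest largely on the spread shared across genes. TPM was computed from deposited counts and lengths. Replicates differed by more than sampling noise (chi-square per degree of freedom 3.65 in shCon and 7.77 in shUBXN1), so none was counted as a copy. On simulated counts with 200 genes changed (16450 genes run), 76.6% of 2-fold and 93.2% of 4-fold changes were recovered, with 11 false calls. In the data 56.2% of genes tested were called, so the simulated setting differs and these figures do not measure recovery here.

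The keratins, the gene lists and the tests were chosen with earlier results of these data known. The genes given are all 10 keratins, genes whose exons overlap theirs, and pseudogenes. Overlapping genes with at most 5 counts in every library were left out. From each list came the 3 genes with the smallest p in each direction among those with an adjusted p under 0.05. The 3 genes nearest in profile to KRT8 and KRT18 were also given. KRT4, KRT79, VIM, PLEC, SOX9, HNF4A, EPCAM, PTPRC, CFTR, PROM1 and GPC3 were named after their values were seen. Alternatives were DESeq2 1.42.0, total count scaling, limma-voom and limma 3.58.1 on log2(TPM + 1), no filter, at least 10 counts in every library, a replicate block, unrounded counts, removal of the GC trend, members summed with their pseudogenes or near copy, a fold of 1.5 and leaving out each library. Intervals and floors cover counting error only where they rest on counts alone.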

Additional observations from a re-analysis of the deposited data

How the results depend on the processing

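KRT19, KRT7 and KRT80 kept their direction and an adjusted p under 0.05 under all 14 alternatives, and so did KRT8 under 13 of 14 (−0.56 to −0.33) and KRT18 under 12 of 14 (0.17 to 0.43), the exceptions being libraries left out. Leaving out each library in turn gave 2 to 3 keratins higher and 1 to 3 lower at the adjusted p, the 1 being without shCon replicate 2 and the 3 without shUBXN1 replicate 2, where KRT23 was tested. At a fold of 2, they gave 1 to 2 lower, and a fold of 1.5 gave 2 higher. The lone library left in a group was assumed to vary like the other group.

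Among keratins not called, the sign of the log2 fold change turned for KRT81 without shUBXN1 replicate 2 (0.04), for KRT10 without shCon replicate 1 (−0.02) and without shUBXN1 replicate 2 (−0.12), and for KRT17 with total count scaling (0.05), with limma on log2(TPM + 1) (0.01), when summed with its pseudogenes (0.83), without shCon replicate 1 (0.07) and without shUBXN1 replicate 1 (0.00). Over the libraries left out in turn, KRT81 ranged from −1.35 to 0.04, KRT10 from −0.12 to 0.17 and KRT17 from −0.15 to 0.07. The cause was not tested. The untested log2 ratio of KRT23, −1.03, was −0.04 without shUBXN1 replicate 1 and −6.33 without shUBXN1 replicate 2, which leaves a library with 0 counts alone.

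Total count scaling took the median log2 change over all tested genes from 0.016 to 0.101, and the share of called genes that were higher went from 49.9% to 57.3%, and turned the medians of other intermediate filament genes (0.07), 14-3-3 genes (0.02) and biliary markers (0.07).

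Same-numbered libraries deviated together with a correlation of 0.0393, so the numbers were not taken to pair them. A replicate block changed no call among the keratins (KRT8 −0.44, KRT18 0.31, KRT19 −1.25, KRT7 1.15 and KRT80 0.77). Depth limits KRT17, KRT81, KRT86 and KRT23, at 0 to 18 counts a library.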
